A study of Mus musculus with 4 samples.

Results

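A set of 10 genes of the absorptive colon surface were followed across tumour epithelium: Car1, Car4, Slc26a3, Slc9a3, Aqp8, Guca2a, Guca2b, Krt20, Cdx2 and Hnf4a. They were taken by symbol, 10 of the 31053 genes counted, and all 10 were found. Colon tumours had been raised in female C57BL/6 mice with the carcinogen azoxymethane (AOM, 12.5 mg/kg) and 3 cycles, each 5 days long, of the colitis agent dextran sulphate sodium (DSS, 2.5% and for the last cycle 2%), and tissue was taken 30 days after DSS ended. There are 4 labelled samples, 1 per group: CD45+ and CD45- cells from Egfr fl/fl mice and from EgfrΔMYL mice, which lack the EGF receptor gene in the myeloid lineage (the sources used here name neither the deleter line nor the number of mice). Droplet capture with a 3′ kit gave unique molecular identifiers (UMIs, one tag per captured RNA molecule) for 18026 barcodes in 1 matrix. The barcodes end in 1 of 4 numbers, called libraries 1 to 4 here, and these numbers could not be tied to the labelled samples. Neither the genotypes nor the sorts were therefore compared, no p-value was computed, and the comparisons are between subsets of epithelial cells.

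The colon surface takes up sodium chloride and water. As background, the sodium/proton exchanger NHE3 (Slc9a3) and the chloride/bicarbonate exchanger DRA (Slc26a3) work side by side in the apical membrane, carbonic anhydrases (Car1 in the cytosol, Car4 on the membrane) supply the protons and bicarbonate they exchange, and aquaporin 8 (Aqp8) is a water channel. Guanylin (Guca2a) and uroguanylin (Guca2b) are secreted peptides that activate the receptor guanylate cyclase C and so restrain sodium uptake. Keratin 20 (Krt20) is a cytoskeletal protein of differentiated surface cells, while Cdx2 and Hnf4a are transcription factors that maintain intestinal identity.

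Epithelial-like cells made up 1790 of 14188 kept cells (12.6%), in 5 of 30 clusters, and all 10 epithelial markers (Epcam, Krt8 and others) were seen in each of these clusters. Libraries 1 and 2 held 398 and 1267 of them, and libraries 3 and 4 held 42 and 83. For a fair comparison each cell was thinned at random to 2000 UMIs, which left out the 553 shallower cells (30.9%) and kept 1237. A cell was Wif1/Notum/Nkd1-positive with at least 1 UMI from those 3 Wnt-feedback genes, Ly6a-positive with at least 1 UMI of Ly6a (Sca-1, a gene of regenerating epithelium), and goblet with at least 3 of 8 goblet genes (Muc2, Fcgbp, Clca1, Spink4, Tff3, Zg16, Spdef, Atoh1). That gave 546 Wif1/Notum/Nkd1-positive, 57 goblet, 246 Ly6a-positive and 260 remaining cells, with 128 cells in several gates set apart.

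Genes outside the gates went with the labels in most cases. Of 10 further Wnt targets, 9 had their highest level in Wif1/Notum/Nkd1-positive cells (the exception was Cd44), as did 7 of 7 further goblet genes in goblet cells and 5 of 8 regenerative genes in Ly6a-positive cells. Before thinning the 4 subsets had medians of 14143.5, 14272, 7548 and 6448 UMIs, in the order just given. Haemoglobin took 0.640, 0.0965, 1.38 and 2.54% of their thinned UMIs. Enteroendocrine markers summed to 2654 counts per 1000000 UMIs (CPM) in the remaining cells and to 0 to 332 CPM in the other 3 subsets. What part these differences have in the results below was not tested. Many cells sat at a gate's edge: 109 of the Wif1/Notum/Nkd1-positive cells had exactly 1 such UMI, 79 of the Ly6a-positive cells had exactly 1 Ly6a UMI, and 24 goblet cells had exactly 3 goblet genes. Across libraries, 24 barcode sequences occurred more than once, and 5 epithelial-like cells shared theirs with a kept cell of another library.

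All 10 genes had their highest level in epithelial-like cells among the 11 named cell classes, where 33.9% of 17089 genes with at least 10 UMIs had theirs. In full counts Guca2a stood at 151 CPM in epithelial-like cells, and the next class, monocyte/macrophage-like cells, had 1.21 CPM. Slc9a3 stood at 54.7 against 0.883 CPM (erythroid-like), Krt20 at 64.9 against 1.56 CPM (neutrophil-like) and Hnf4a at 55.4 against 1.12 CPM (neutrophil-like). Car4 was the least separated, at 13.9 CPM (95% exact Poisson interval 12.2 to 15.8) against 4.24 CPM in neutrophil-like cells. Of the 38 Car4 UMIs there, 33 lay in 1 neutrophil-like cluster, and 27 of those came from library 4.

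Neutrophil-like cells, assumed to lack these genes, were used to gauge the level that RNA free in the droplets could give. The assumption was not tested and is least safe for Car4. In library 4, 1 neutrophil-like cluster held 27 Car4 UMIs and the epithelial-like cells held 0. In the 78 and 272 neutrophil-like cells of libraries 1 and 2, where nearly all epithelial-like cells were, each of the 10 genes had 0 to 2 UMIs per library. After the same thinning, 99 such cells held 1 UMI each of Guca2a, Guca2b and Krt20 (1.01% of cells) and 0 of the other 7 genes, which allows up to 15.2 CPM. For a gene with 1 UMI the level was 5.05 CPM (0.128 to 28.1). In Wif1/Notum/Nkd1-positive cells Krt20 (5.49 CPM), Guca2a (22.9 CPM), Guca2b (21.1 CPM) and Car1 (12.8 CPM) lay under these limits. The part of free RNA in such low levels was not tested.

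Taken gene by gene, the 10 genes did not form 1 block. Krt20, Car1 and Car4 were highest in Ly6a-positive cells, Guca2a and Guca2b in goblet cells, and Slc9a3 in Wif1/Notum/Nkd1-positive cells. Hnf4a was spread over all 4 subsets, and Slc26a3, Aqp8 and Cdx2 were too sparse to order. Levels below are CPM of thinned cells with 95% exact Poisson intervals, ratios carry the exact interval for a pair of Poisson counts, and these intervals cover counting error only, although the UMIs of some genes come from few cells. Subset levels given without thinning are full counts of the cells gated after thinning.

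**Figure D1:**
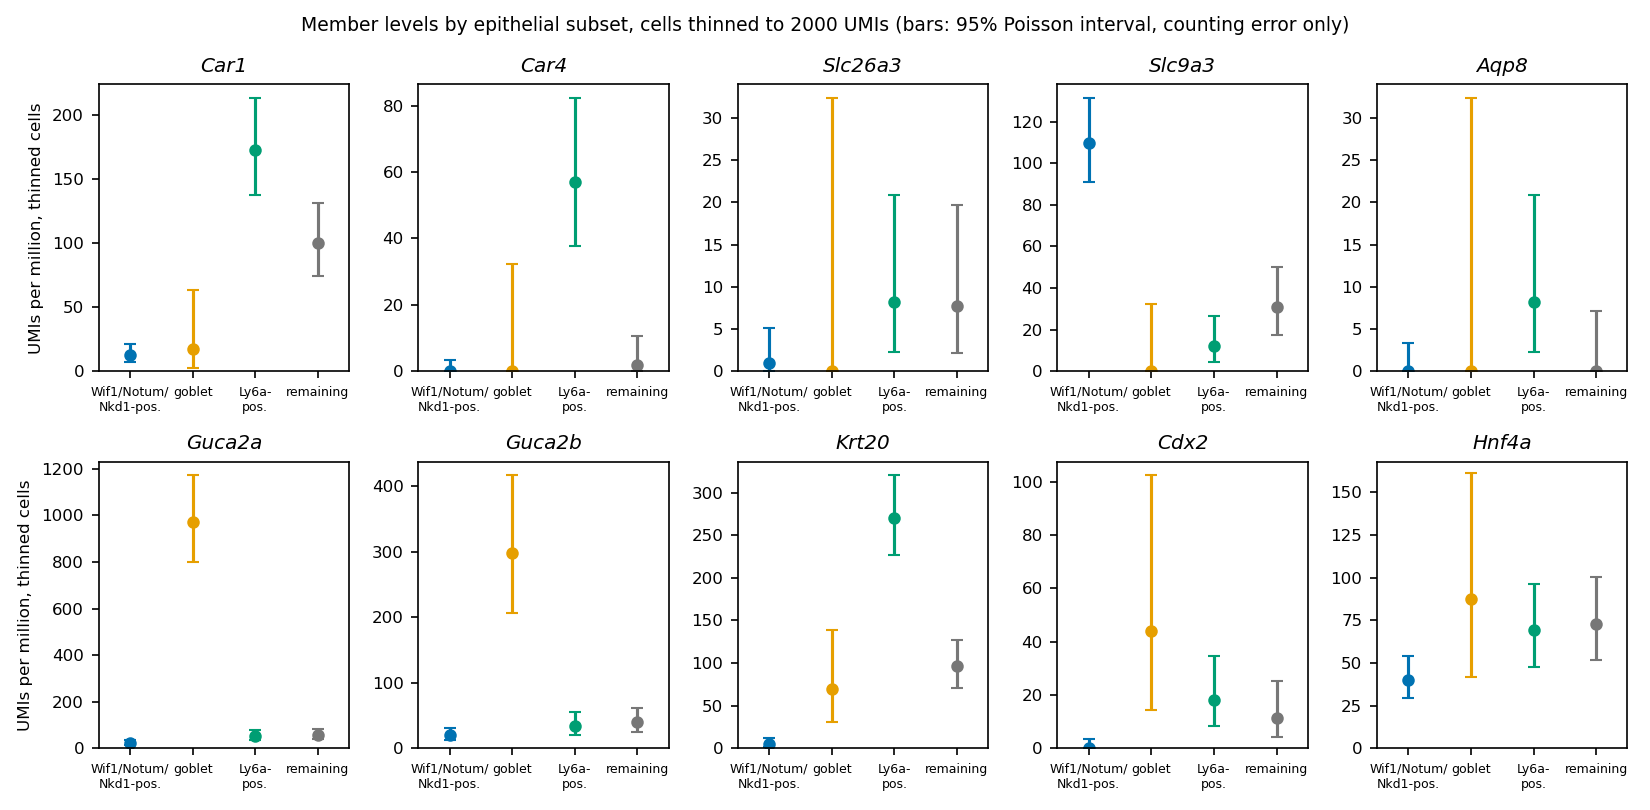
Level of each gene (CPM of cells thinned to 2000 UMIs, vertical axis, a scale of its own per panel) in the 4 epithelial subsets (horizontal axis). Points are pooled levels and bars are 95% exact Poisson intervals for counting error only. Slc9a3 is highest in Wif1/Notum/Nkd1-positive cells (109.9 CPM), Guca2a (974 CPM) and Guca2b (298 CPM) in goblet cells, and Krt20 (270.3 CPM) and Car1 (173 CPM) in Ly6a-positive cells.

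Among the transport genes, Slc9a3 (chr13:74121457-74169442, mm10) had the pattern least like the rest. It stood at 109.9 CPM in Wif1/Notum/Nkd1-positive cells (91.1 to 131; 120 UMIs in 88 of 546 cells), 30.8 CPM in remaining cells (17.6 to 49.97; 16 UMIs in 11 of 260 cells), 12.2 CPM in Ly6a-positive cells (4.48 to 26.5; 6 UMIs in 5 of 246 cells) and 0 in goblet cells, where 3 counts would be 26.3 CPM. The Wif1/Notum/Nkd1-positive level was 3.57-fold above that of the remaining cells (2.11 to 6.45), and the intervals of these levels did not overlap. The Ly6a-positive level was 2.52-fold below that of the remaining cells, with an interval that spans equality (0.938 to 7.87), and 9.01-fold below the Wif1/Notum/Nkd1-positive level (4.02 to 25.0). Without thinning the levels were 95.2, 27.7, 10.5 and 1.02 CPM in the same order. The gap rested on library 2, with 121 against 25.7 CPM (log2 ratio 2.23). In library 1 it was 47.6 against 38.5 CPM, from 6 and 5 UMIs (log2 ratio 0.31). Thinned to 4000 UMIs, which left 95 remaining cells, the log2 ratio was 5.18 rather than 1.84, and it was -0.081 when whole sub-clusters were assigned to the subsets.

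RefSeq's promoter table for build GRCm38.p6 matched 9 of the 10 genes. The bases upstream of the Slc9a3 start, shown because this gene parts from the other transport genes, are given up to the first annotated exon. They hold none of the 3 motifs searched on either strand, namely TTTATNG (Cdx factors), CAAAGNNCA (Hnf4 factors) and TATAAA (the TATA box). Letters are 5′ to 3′ on the gene's strand, in lower case, and capitals mark a motif match wherever one occurs.
Slc9a3 (chr13:74121163-74121412, plus strand): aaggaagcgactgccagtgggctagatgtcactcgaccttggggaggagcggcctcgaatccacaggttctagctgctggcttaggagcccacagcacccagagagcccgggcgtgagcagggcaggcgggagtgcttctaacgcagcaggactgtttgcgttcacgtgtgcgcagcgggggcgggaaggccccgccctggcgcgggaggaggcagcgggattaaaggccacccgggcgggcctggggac

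Car1 (chr3:14766216-14808368) had 173 CPM in Ly6a-positive cells (138 to 214; 85 UMIs in 33 cells), 100 CPM in remaining cells (74.7 to 131; 52 UMIs in 17 cells), 17.5 CPM in goblet cells (2.12 to 63.4; 2 UMIs in 1 cell) and 12.8 CPM in Wif1/Notum/Nkd1-positive cells (7.01 to 21.5; 14 UMIs in 10 cells). Pooled over libraries, the Ly6a-positive and remaining cells were thus high and the other subsets low. In library 1 alone the 65 remaining cells held 0 Car1 UMIs, against 65.9 CPM in Ly6a-positive cells. Against the remaining cells, Car1 was 7.80-fold lower in Wif1/Notum/Nkd1-positive cells (4.26 to 15.2), 5.70-fold lower in goblet cells (1.50 to 48.3) and 1.73-fold higher in Ly6a-positive cells (1.21 to 2.49). Without thinning the levels were 122, 63.0, 4.09 and 9.33 CPM. In remaining cells 1 cell held 22 of the 52 UMIs, so ratios to these cells rest in part on 1 cell. Of the 52, 29 came from 13 cells of library 4. Without libraries 3 and 4 the log2 ratio of Wif1/Notum/Nkd1-positive to remaining cells was -2.16 instead of -2.96, and that of goblet cells -1.39 instead of -2.51. That of Ly6a-positive cells was then 1.51 instead of 0.79, past 2-fold. For Wif1/Notum/Nkd1-positive cells the log2 ratio was -1.70 without cluster 1, -1.80 without cluster 9 and -1.17 at 4000 UMIs. The goblet value, which rests on 2 UMIs, turned to 0.58 when cells of several gates were counted as goblet first, and to 0.27 without cluster 2, which left 8 goblet cells. Car1 is also known from red blood cells. Haemoglobin was highest in the remaining cells, and erythroid-like cells held 3 Car1 UMIs (2.65 CPM, 0.546 to 7.74). The part of red-cell RNA in the Car1 levels was not tested.

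Car4 (chr11:84957786-84966044), Slc26a3 (chr12:31390871-31473917) and Aqp8 (chr7:123462291-123468004) were rare. Car4 was found at 56.9 CPM in Ly6a-positive cells (37.8 to 82.3) and 1.92 CPM in remaining cells (0.0487 to 10.7), and at 0 in the Wif1/Notum/Nkd1-positive and goblet cells. Its 28 UMIs in Ly6a-positive cells came from 5 cells, 12 from 1 of them, so the ratio of 29.6 to the remaining cells (4.89 to 1210) rests on few cells and on 1 UMI in the remaining ones. The log2 ratio was 4.89, against 1.88 in library 2 alone and 3.76 in library 1 alone. It was 1.10 when all 1790 epithelial-like cells were gated on full counts. Full counts of the cells gated after thinning gave 13.2 CPM in Ly6a-positive and 2.62 CPM in remaining cells. Without cluster 0 no ratio could be given. Slc26a3 had 4 UMIs in Ly6a-positive, 4 in remaining, 1 in Wif1/Notum/Nkd1-positive and 0 in goblet cells, and Aqp8 had 4 in Ly6a-positive cells and 0 in the other 3 subsets. In thinned counts no ratio of Slc26a3 between subsets had an interval clear of equality. For Aqp8 only the ratio of Ly6a-positive to Wif1/Notum/Nkd1-positive cells did. It was 2.96 with the 0 UMIs set to 3 counts (interval from 1.47), on 4 UMIs. Without thinning, Slc26a3 was at 6.01 CPM in Ly6a-positive cells (3.67 to 9.28; 20 UMIs in 5 cells), 1.87 CPM in remaining cells (0.609 to 4.37) and 0.126 CPM in Wif1/Notum/Nkd1-positive cells (0.00319 to 0.703; 1 UMI). Aqp8 was then at 3.005 CPM in Ly6a-positive cells (1.44 to 5.53; 10 UMIs in 6 cells), 1.12 CPM in remaining cells (0.232 to 3.29) and 0.252 CPM in Wif1/Notum/Nkd1-positive cells (0.0306 to 0.911). For each gene the Ly6a-positive interval lay above the Wif1/Notum/Nkd1-positive one and overlapped that of the remaining cells.

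These 3 rare genes met in the same cells. Of the 7 thinned cells with a Car4 UMI, 4 also had Aqp8, 3 had Slc26a3 and 5 had Krt20, where the 1230 cells without Car4 held Aqp8 in 0, Slc26a3 in 5 and Krt20 in 89 cells. In full counts 1 cell of library 1, which passed the Ly6a and goblet gates together, held 129 of 243 Car4 UMIs, 28 of 53 Aqp8 UMIs and 10 of 51 Slc26a3 UMIs. Without it, the level over all epithelial-like cells went from 13.9 to 6.53 CPM for Car4, from 3.03 to 1.43 CPM for Aqp8 and from 2.92 to 2.35 CPM for Slc26a3. That cell had 13361 UMIs, 124 of Epcam and 0 of Ptprc (CD45). It also held 8 UMIs each of the goblet genes Tff3 and Zg16 and 0 of Muc2.

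The upstream bases of Slc26a3 carried a match to CAAAGNNCA, first base at -136 from the start, and one to TATAAA at -30. They are shown because Hnf4a is itself one of the 10 genes.
Slc26a3 (chr12:31437969-31438216, plus strand): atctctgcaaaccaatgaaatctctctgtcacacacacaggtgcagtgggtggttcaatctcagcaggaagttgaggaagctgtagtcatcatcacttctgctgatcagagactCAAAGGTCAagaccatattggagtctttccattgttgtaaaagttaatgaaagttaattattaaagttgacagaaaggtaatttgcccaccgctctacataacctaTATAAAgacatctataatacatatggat

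The guanylin peptides lie next to each other on chromosome 4, Guca2a at chr4:119637704-119639471 on the plus strand and Guca2b at chr4:119656607-119658954 on the minus strand, with 17135 bases between them. Guca2a stood at 974 CPM in goblet cells (801 to 1173; 111 UMIs in 36 of 57 cells), 57.7 CPM in remaining cells (38.9 to 82.4), 52.8 CPM in Ly6a-positive cells (34.5 to 77.4) and 22.9 CPM in Wif1/Notum/Nkd1-positive cells (14.8 to 33.8). Guca2b stood at 298 CPM in goblet cells (207 to 417; 34 UMIs in 21 cells), 40.4 CPM in remaining cells (25.0 to 61.7), 34.6 CPM in Ly6a-positive cells (20.1 to 55.3) and 21.1 CPM in Wif1/Notum/Nkd1-positive cells (13.4 to 31.6). Goblet cells were thus far above the other 3 subsets for each peptide, with no overlap of intervals. The goblet level exceeded that of the remaining cells 16.9-fold for Guca2a (11.2 to 26.2) and 7.39-fold for Guca2b (4.17 to 13.4). In library 1 the goblet level of Guca2a was 775 CPM and in library 2 it was 1081 CPM, against 7.69 and 77.1 CPM in the remaining cells. Cluster 2 held 49 of the 57 goblet cells, and without it no goblet ratio could be given for either peptide. The leading genes of cluster 2 included Lyz1, Ang4 and the defensin Defa24 beside Spink4 and Muc2. The goblet subset is therefore a gate on secretory genes and need not hold goblet cells alone.

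Below the goblet level, Guca2a was 2.52-fold lower in Wif1/Notum/Nkd1-positive than in remaining cells (1.43 to 4.47), and Guca2b 1.92-fold lower (1.01 to 3.62). The Guca2a difference was a log2 ratio of -1.33 over all libraries, -1.86 in library 2, and 1.63 in library 1, where it rested on 3 and 1 UMIs. It was -0.25 without cluster 9 and -0.95 with another draw of the thinning. Of the remaining cells, 16 had exactly 2 goblet genes, where Guca2a was already high. With at least 2 goblet genes needed for the goblet gate the log2 ratio was -0.86, short of 2-fold. It was also short of 2-fold at 1000 UMIs (-0.44) and with whole sub-clusters assigned (-0.71). It was larger without thinning (-2.22) and with at least 4 goblet genes (-1.81). In Ly6a-positive cells neither peptide differed from the remaining cells beyond counting error, with ratios of 0.916 (0.520 to 1.60) and 0.856 (0.424 to 1.70).

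The peptides were found together. Of 98 thinned cells with Guca2b, 55 (56.1%) also had Guca2a, against 70 of 1139 cells (6.15%) without Guca2b. Neither upstream window holds any of the 3 motifs. The windows are shown as the pair of neighbouring genes that were high in the same subset.
Guca2a (chr4:119637482-119637703, plus strand): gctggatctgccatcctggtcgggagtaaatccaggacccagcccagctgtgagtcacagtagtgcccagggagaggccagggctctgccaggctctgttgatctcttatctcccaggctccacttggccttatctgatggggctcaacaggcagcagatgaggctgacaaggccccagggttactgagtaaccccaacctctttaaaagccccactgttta
Guca2b (chr4:119658955-119659195, minus strand): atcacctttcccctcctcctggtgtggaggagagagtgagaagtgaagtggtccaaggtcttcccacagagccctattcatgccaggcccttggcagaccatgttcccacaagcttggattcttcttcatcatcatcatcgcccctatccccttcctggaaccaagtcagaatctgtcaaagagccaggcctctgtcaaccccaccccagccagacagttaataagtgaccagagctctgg

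Krt20 (chr11:99428403-99438150) is a marker of surface differentiation and had a wide range. It reached 270.3 CPM in Ly6a-positive cells (226 to 320.4; 133 UMIs in 55 of 246 cells), 96.2 CPM in remaining cells (71.4 to 127; 50 UMIs in 21 cells), 70.2 CPM in goblet cells (30.3 to 138; 8 UMIs in 4 cells) and 5.49 CPM in Wif1/Notum/Nkd1-positive cells (2.02 to 11.96; 6 UMIs in 5 of 546 cells). Ly6a-positive cells were above all other subsets and Wif1/Notum/Nkd1-positive cells below all, with no overlap of these intervals with the others. The Ly6a-positive level was 2.81-fold above that of the remaining cells (2.02 to 3.97) and 49.2-fold above that of Wif1/Notum/Nkd1-positive cells (22.0 to 137), which was itself 17.5-fold below the remaining cells (7.50 to 49.9). The Wif1/Notum/Nkd1-positive level was close to the 5.05 CPM of Krt20 in thinned neutrophil-like cells (1 UMI). Without thinning the levels were 198, 64.5, 20.5 and 3.53 CPM. The Ly6a-positive excess was a log2 ratio of 1.49. It fell below 2-fold in library 1 alone (0.66) and without cluster 0 (0.45), and was 1.86 in library 2 alone. Enteroendocrine-like cells, 15 of which were among the remaining cells, also carried Krt20, and without their cluster the log2 ratio was 2.35. The Wif1/Notum/Nkd1-positive deficit stayed between -3.02 and -5.06 under all 22 alternatives that gave a value.

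The upstream bases of Krt20 hold TATAAA with first base at -29 and, overlapping it on the opposite strand, a match to TTTATNG at -30.
Krt20 (chr11:99438154-99438403, minus strand): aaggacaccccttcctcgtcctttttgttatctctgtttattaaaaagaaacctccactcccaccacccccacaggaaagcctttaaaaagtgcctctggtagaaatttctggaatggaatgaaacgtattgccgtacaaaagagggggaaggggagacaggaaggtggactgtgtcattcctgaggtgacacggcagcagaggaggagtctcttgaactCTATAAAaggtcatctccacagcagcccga

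Of the transcription factors, Hnf4a (chr2:163506808-163572910) was the most even gene of the set. It stood at 87.7 CPM in goblet cells (42.1 to 161), 73.1 CPM in remaining cells (51.7 to 100.3), 69.1 CPM in Ly6a-positive cells (47.9 to 96.6) and 40.3 CPM in Wif1/Notum/Nkd1-positive cells (29.3 to 54.1). The intervals of these levels all overlapped. The Wif1/Notum/Nkd1-positive level was 1.81-fold below that of the remaining cells (1.14 to 2.87). An antisense gene, Hnf4aos, overlaps Hnf4a and was counted as a gene of its own, and whether counting used the strand is not stated in the sources at hand. Cdx2 (chr5:147300805-147307270) gave 9 UMIs in Ly6a-positive, 6 in remaining, 5 in goblet and 0 in Wif1/Notum/Nkd1-positive cells. For 546 Wif1/Notum/Nkd1-positive cells 3 counts would be 2.75 CPM. Set to that level, Cdx2 was 4.20-fold lower there than in remaining cells (11.5 CPM, 4.23 to 25.1), on 6 UMIs. The interval of this ratio began at 2.47-fold. In full counts Cdx2 had 4 UMIs in those cells (0.505 CPM) and 41 in remaining cells (15.4 CPM).

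Over the promoters of the 9 matched genes, 10 in all since Hnf4a has a pair, 3 held TTTATNG (Car4, Aqp8 and Krt20), 1 held CAAAGNNCA and 3 held TATAAA. Of all 32851 promoters of 300 bases in the table, 10.9%, 6.36% and 13.6% held these motifs. A match is a run of letters and not a bound site.

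A gene was called lower or higher between subsets when its level differed at least 2-fold with at least 10 UMIs in the higher subset, as a description without a test. Against the remaining cells, Wif1/Notum/Nkd1-positive cells had 3 of the 10 genes lower (Krt20, Car1, Guca2a) and 1 higher (Slc9a3), 2 in between, and 4 under 10 UMIs. Of all 9354 genes with enough UMIs, 7.94% were lower and 13.1% higher. The median log2 ratio was -1.14 over the 6 genes with enough UMIs and 0.17 over all genes. In goblet cells 2 of 6 were higher (Guca2a, Guca2b) and 1 lower (Car1), where 5.93% of all 6897 genes were higher and 21.9% lower. In Ly6a-positive cells 2 of 7 were higher (Car4, Krt20) and 1 lower (Slc9a3), where 6.39% of 7291 genes were higher and 10.8% lower. The Slc9a3 call in Ly6a-positive cells was lost in library 2 alone (log2 ratio -0.29), without cluster 0 (-0.66), without sub-cluster 12 (-0.72) and with another draw of the thinning (-0.84), and at 4000 UMIs it turned to 2.05.

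Set directly against Wif1/Notum/Nkd1-positive cells, Ly6a-positive cells had 4 of 7 genes higher (Krt20, Car1, Car4 and Guca2a) and Slc9a3 lower, where 9.14% of 9356 genes were higher and 21.8% lower. Car1 was 13.5-fold higher (7.61 to 25.7). Car4 was 20.7-fold higher with its 0 UMIs in Wif1/Notum/Nkd1-positive cells set to 3 counts over that subset. Its interval began at 15.8-fold. Against the same cells, goblet cells had 3 of 5 genes higher (Guca2a, Guca2b and, at 2.18-fold with an interval of 0.977 to 4.39, Hnf4a) and Slc9a3 lower, where 4.45% of 9110 genes were higher and 20.8% lower. Slc9a3 was 4.18-fold lower with its 0 goblet UMIs set to 3 counts, and the interval began at 3.34-fold. Goblet and Ly6a-positive cells were apart in 5 of 6 genes, with Guca2a and Guca2b higher and Krt20, Car1 and Car4 lower, where 5.99% of 6144 genes were higher and 21.1% lower.

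The genes also moved with the amount of each gate's genes, counted over all 1237 thinned cells. Slc9a3 went from 18.4 CPM (11.5 to 27.8) with 0 UMIs of Wif1, Notum and Nkd1 to 58.6 CPM with 1, 103 CPM with 2 to 3, and 127 CPM (96.1 to 165) with 4 to 7. With 8 or more it was 72.5 CPM (34.7 to 133), an interval that overlaps those of the 3 preceding bins. Krt20 went the other way over these bins, from 178 CPM to 24.1, 7.35, 2.27 and 0 CPM.

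Over the amount of Ly6a, Krt20 climbed from 36.5 CPM with 0 UMIs (28.1 to 46.6) to 61.5 CPM with 1, 194 CPM with 2 to 3 and 415 CPM with 4 or more (338 to 503). Car1 went from 38.8 to 108, 97.2 and 297 CPM over the same bins, the last with 73 UMIs. These bins include the cells of several gates, 1 of which held 29 thinned Car1 UMIs. The cell with the most Car1 in full counts, also of several gates, had 128 Car1 and 32 Ly6a UMIs. The part of single cells in the last Car1 value was not tested. Hnf4a had 53.7, 38.5, 88.0 and 56.9 CPM, with no order beyond counting error. Over the number of goblet genes seen, Guca2a went from 14.9 CPM with 0 to 34.5 with 1, 545 with 2, 932 with 3 and 1053 CPM with 4 or more. The step in Guca2a thus lay between 1 and 2 goblet genes, below the limit of 3 that defined goblet cells. Guca2b followed, with 19.2, 24.1, 216, 261 and 439 CPM.

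**Figure D2:**
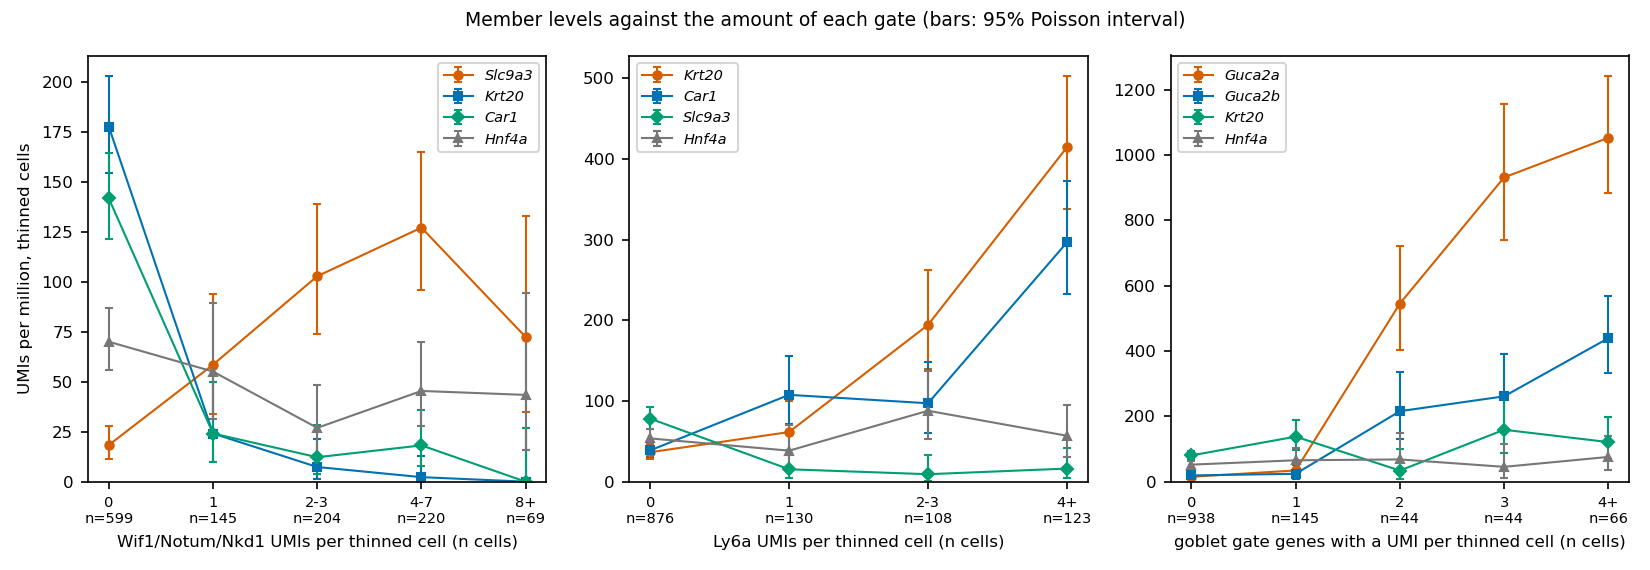
Levels of selected genes (CPM of cells thinned to 2000 UMIs, vertical axis) against the amount of each gate per cell (horizontal axis, with the number of cells): summed Wif1, Notum and Nkd1 UMIs, Ly6a UMIs, and goblet genes with a UMI. Bars are 95% exact Poisson intervals. Slc9a3 goes from 18.4 to 127 CPM over the first 4 bins of the left panel while Krt20 goes from 178 to 2.27 CPM. Krt20 reaches 415 CPM at 4 or more Ly6a UMIs, and Guca2a 1053 CPM at 4 or more goblet genes.

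The wider pathways were read from 6 lists (76 genes). In Wif1/Notum/Nkd1-positive against remaining cells, 8 of 14 ion and water transport genes with enough UMIs were lower and 0 higher, where 7.94% of all genes were lower and 13.1% higher, shares that apply to each list in this comparison. The leading ones had 0 UMIs there, set to 3 counts. Clca4b and Clca4a, relatives of a calcium-activated chloride channel regulator, were 26.6-fold (interval from 20.6) and 9.80-fold (from 6.97) lower. Atp12a, the colonic proton/potassium pump, was 9.10-fold lower (from 6.40). Of 13 brush border genes 7 were lower and 1 higher. The lower ones were led by the membrane mucin Muc3 (0 UMIs, 48.3-fold at 3 counts, interval from 38.2) and the adhesion molecules Ceacam20 (19.6-fold) and Ceacam1 (14.4-fold). The actin bundler Espn was 2.54-fold higher.

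Nutrient uptake and late differentiation genes past 2-fold mostly had the same direction. Of 5 uptake genes, 3 were lower: the monocarboxylate transporter Slc5a8 (9.80-fold, interval from 6.97), the amino acid transporter Slc6a14 (9.10-fold, from 6.40) and Slc16a1 (2.33-fold, with an interval of 0.852 to 6.49 that spans equality). Slc5a8 and Slc6a14 had 0 UMIs there, set to 3 counts. Of 11 late differentiation genes, 7 were lower and 1 higher. The lower ones were led by the antibacterial surface protein Lypd8 (15.2-fold), Sult1a1 (0 UMIs, 14.0-fold at 3 counts, interval from 10.4) and Emp1 (12.9-fold). Among 12 transcription factors, 4 were lower and 1 higher. Vdr, the vitamin D receptor, was 9.10-fold lower with its 0 UMIs set to 3 counts (interval from 6.40). Hnf4g was 3.67-fold and Cdx1 3.32-fold lower, and the coactivator Ppargc1a 2.38-fold higher.

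Prkg2, a cGMP-dependent kinase downstream of guanylate cyclase C, was 4.14-fold higher in Wif1/Notum/Nkd1-positive cells (79.7 against 19.2 CPM). It was the only one of 3 genes of that pathway past 2-fold in this comparison. Slc9a3 was therefore high in the subset in which the list of its fellow transport genes was low. The median log2 ratios were -1.54 for ion and water transport, -1.10 for the brush border and -2.12 for late differentiation, against 0.17 over all genes.

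In Ly6a-positive cells the transport and brush border lists lay above all genes in the comparison with the remaining cells, with median log2 ratios of 0.66 and 0.95 against -0.13 over all genes. The late differentiation list had a median of -0.66, below that of all genes. Of 14 transport genes 3 were higher and 0 lower, where 6.39% of all genes were higher and 10.8% lower: Clca4b (5.76-fold), Clca4a (5.06-fold) and Atp12a (4.31-fold). Of 13 brush border genes 6 were higher and 0 lower, led by the actin bundler Pls1 (2.57-fold), the protocadherin Cdhr2 (2.35-fold) and Ceacam1 (2.33-fold). Of 11 late differentiation genes 5 were higher, led by Lypd8 (7.37-fold), Pmp22 (6.93-fold) and Plac8 (4.55-fold), and the prostaglandin-degrading enzyme Hpgd was among those lower (2.21-fold). No gene among 11 transcription factors, 5 uptake genes or 3 guanylate cyclase C genes passed 2-fold.

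Goblet cells had list genes in each direction, and 5.93% of all genes were higher there and 21.9% lower. Of 13 transport genes 3 were higher, among them the sodium-potassium-chloride cotransporter Slc12a2 (2.90-fold) and Atp1b1 (2.44-fold). Another 4 were lower, among them the potassium channel Kcnn4 (3.95-fold), the bicarbonate cotransporter Slc4a4 (3.51-fold) and the carbonic anhydrase Car2 (2.66-fold). Gucy2c, the receptor for the guanylins, was 3.58-fold higher (96.5 against 26.9 CPM, 11 and 14 UMIs), in the cells that also had the most Guca2a and Guca2b. Of 12 brush border genes, Myo1a (2.74-fold), Ceacam1 (2.74-fold) and Muc13 (2.60-fold) were higher and Muc3 (7.56-fold) and Ceacam20 (2.05-fold) lower. Of 5 uptake genes, Slc5a8 (3.07-fold) and Acsl5 (2.85-fold) were lower. Of 11 late differentiation genes, Pmp22 (6.08-fold) and Lypd8 (2.11-fold) were higher and Emp1 (8.11-fold), Selenbp1 (3.07-fold) and Hpgd (3.07-fold) lower. Of these lower genes Kcnn4, Slc4a4, Slc5a8, Acsl5, Ceacam20, Selenbp1 and Hpgd had 1 to 3 UMIs in goblet cells and ratio intervals that span equality.

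A finer view came from 15 sub-clusters of the epithelial-like cells, made without the 10 genes or the pathway lists among the clustering features. In full counts Slc9a3 was highest in sub-cluster 12, at 181 CPM (457 UMIs in 118 of 145 cells), followed by sub-clusters 7, 5 and 9 with 82.5, 75.2 and 59.1 CPM. Sub-cluster 12 was led by Mptx2 and Fam181b, and 142 of its cells came from library 2. Without it the log2 ratio of Slc9a3 between Wif1/Notum/Nkd1-positive and remaining cells was 2.11 against 1.84 with it.

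Car4, Slc26a3 and Aqp8 peaked in sub-cluster 4, which was led by Emp1 and Saa1 and came from libraries 1 and 2 (73 and 86 cells). It held 223 of 243 Car4 UMIs in 24 of its 159 cells (318 CPM), 48 of 51 Slc26a3 UMIs in 16 cells (68.4 CPM) and 42 of 53 Aqp8 UMIs in 8 cells (59.9 CPM). Krt20 was at 466 CPM there, in 87 cells. This sub-cluster also had the most Malat1, a nuclear RNA, at 114732 CPM against 3917 to 107974 CPM in the other 14, with 8731 CPM of Gm26917, a median of 2291 UMIs and 7.61% mitochondrial UMIs. The part of these in its levels was not tested. The highest level of Krt20 was 1417 CPM in sub-cluster 6 (47 of 69 cells, led by Ubd, with Ly6a at 7917 CPM). Krt20 also reached 613 CPM in sub-cluster 13, whose leading genes were the gut hormone and granule genes Pyy, Chgb and Chga (15 of 25 cells). In that hormone-expressing sub-cluster Slc9a3, Car1, Guca2a and Guca2b were all at 0 UMIs.

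Guca2a was at 1263 CPM in sub-cluster 11 (28 of 28 cells; led by Mptx1, with Muc2 at 9286 CPM) and 986 CPM in sub-cluster 1 (93 of 126 cells; led by Lyz1, Ang4 and defensins). Guca2b had the reverse order, with 223 and 519 CPM. In UMIs, sub-cluster 1 held 1631 of 2638 for Guca2a and 859 of 1286 for Guca2b, against 714 and 126 in sub-cluster 11. Car1 was at 297 CPM in sub-cluster 10 (44 of 114 cells; led by Gsdmc4), where Slc9a3 had 0 UMIs, Cdx2 was at 36.6 CPM and Hnf4a at 123 CPM. The 11 cells of sub-cluster 3 had 891 CPM of Car1, but in 3 cells, and were led by the myeloid genes Il1b and S100a9. Hnf4a lay between 30.1 and 123 CPM in all 15 sub-clusters. Immune genes (Cd52, Igkc) led sub-cluster 2 beside Zg16, and haemoglobin genes and Gm26917 led sub-cluster 5.

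**Figure D3:**
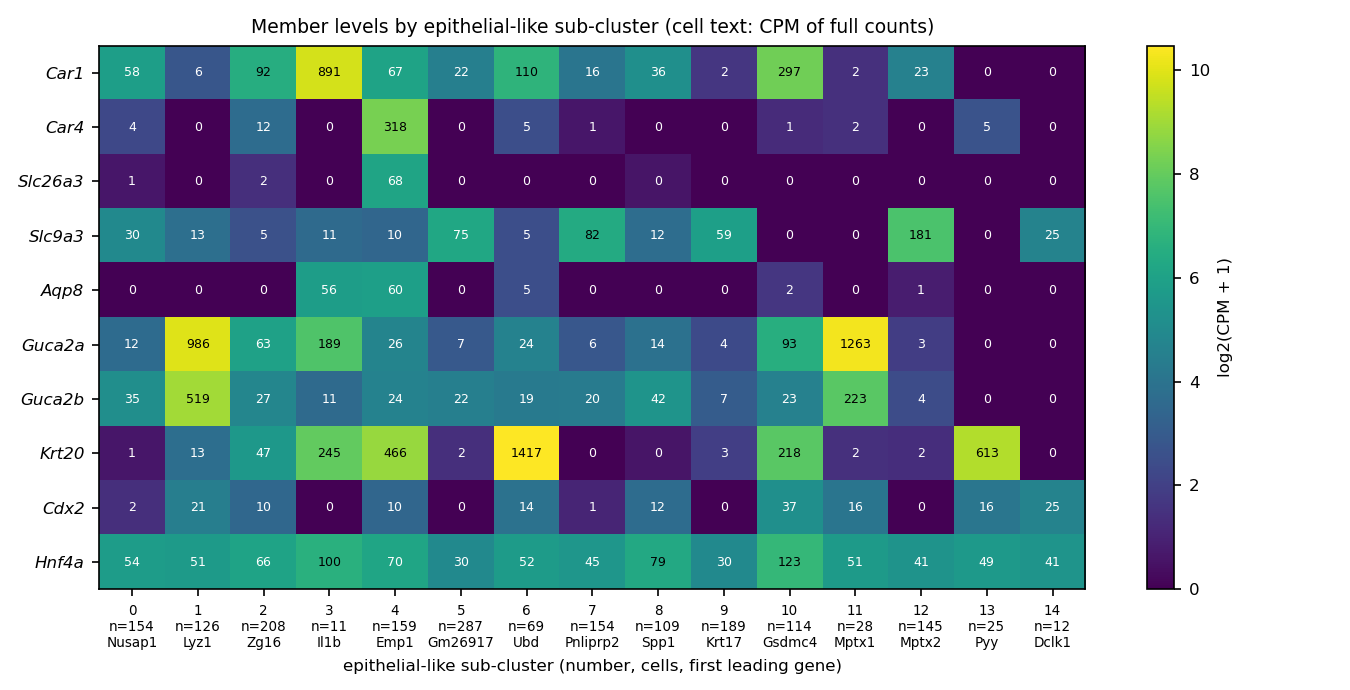
Level of each gene (rows) in the 15 epithelial-like sub-clusters (columns, with cell number and first leading gene). Colour is log2(CPM + 1) of full counts and the printed value is CPM. Slc9a3 is highest in sub-cluster 12 (181 CPM), Car4, Slc26a3 and Aqp8 in sub-cluster 4 (318, 68.4 and 59.9 CPM), Guca2a in sub-clusters 11 and 1, and Krt20 in sub-cluster 6 (1417 CPM).

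Over these 15 sub-clusters, on log2(CPM + 10), Car4 and Slc26a3 had a Pearson r of 0.98, Guca2a and Guca2b 0.84, and Car1 and Hnf4a 0.77. Slc9a3 had a negative r with each of the other 9 genes, from -0.12 with Slc26a3 to -0.74 with Cdx2. The points share libraries and differ in depth, and these values are descriptions. Sub-cluster 4 held 223 of 243 Car4 and 48 of 51 Slc26a3 UMIs, so r values of these genes rest mainly on 1 point. Among other genes with at least 100 UMIs, those most like Slc9a3 were Myrf (r = 0.92), Cubn (0.90) and Rnf180 (0.90). Ly6g6c was the most like Car4 (0.89) and Slc26a3 (0.92). Guca2a was nearest to Gpr20 (0.95), Ccl6 (0.94) and Atoh1 (0.91), the last being 1 of the 8 goblet gate genes, and Guca2b to Scgb2b7 (0.92). Krt20 was nearest to Epb41l4b (0.92), Cdx2 to Smim24 (0.93), Car1 to Nek7 (0.90), Aqp8 to Cxcl3 (0.91) and Hnf4a to Vasp (0.86).

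The genes differed in how their UMIs were spread over the 1790 epithelial-like cells. Hnf4a was seen in 530 cells (29.6%), and 132 cells held 50% of its UMIs. Slc9a3 was seen in 344 cells (19.2%), with 50% of its UMIs in 77 cells. Guca2a, Guca2b, Krt20 and Cdx2 had 50% of theirs in 25, 27, 16 and 26 cells. Car1 was seen in 147 cells, and the top 10 held 51.7% of its 920 UMIs, with 128 in 1 cell of library 2. Car4 was seen in 34, Slc26a3 in 19 and Aqp8 in 14 cells.

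**Figure D4:**
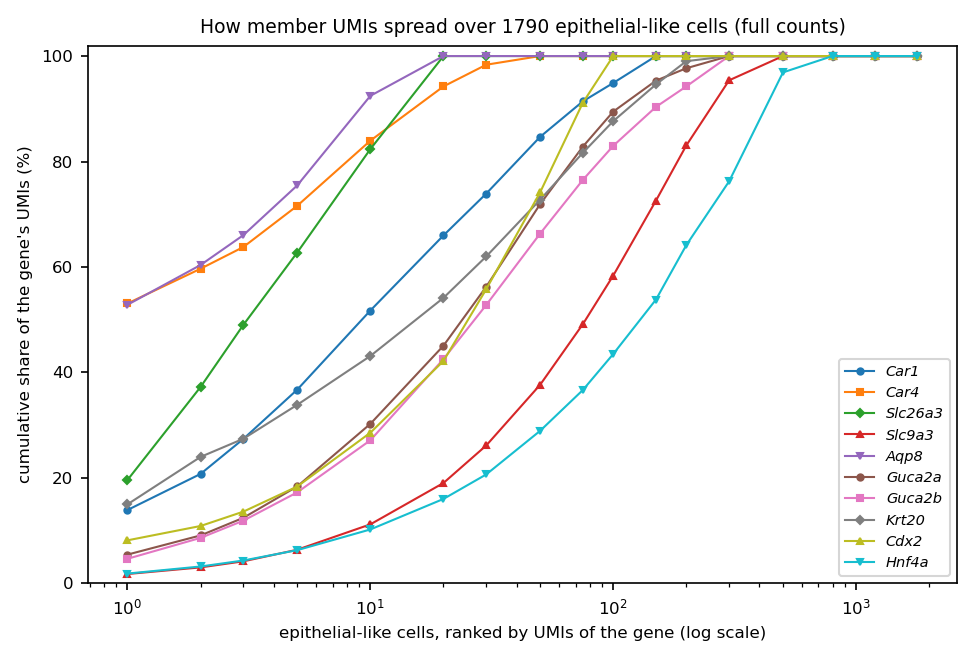
Cumulative share of each gene's UMIs (vertical axis, %) over the 1790 epithelial-like cells ranked by their UMIs of that gene (horizontal axis, log scale), full counts. Aqp8 and Car4 start at 52.8 and 53.1% in 1 cell, while for Hnf4a 132 cells are needed to reach 50%.

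Within a cell, few of the 10 genes were seen at once at this depth. None was found in 71.1% of Wif1/Notum/Nkd1-positive, 60.8% of remaining, 52.8% of Ly6a-positive and 17.5% of goblet cells. Among Ly6a-positive cells 7 had at least 3 of the genes, up to 6, and among Wif1/Notum/Nkd1-positive cells 1 had 3. Krt20 went with Car1, in 19 of 94 cells with Krt20 (20.2%) against 49 of 1143 without (4.29%). Krt20 and Slc9a3 met in 1 cell, which is 1.06% of cells with Krt20, against 9.36% of cells without it that had Slc9a3.

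The libraries, each taken alone, differed in level. In full counts of epithelial-like cells Slc9a3 was at 18.0 CPM in library 1 (14.4 to 22.2) and 70.8 CPM in library 2 (66.2 to 75.7). Car4 was at 40.5 and 3.74 CPM, and 129 of its 198 UMIs in library 1 were from the single cell described above. Krt20 was at 108 and 46.6 CPM, and Guca2a at 215 and 127 CPM. Car1 was at 15.5 and 53.9 CPM, and at 340.0 and 359 CPM in the 42 and 83 cells of libraries 3 and 4, with 35 of 39 UMIs of library 3 in 1 cell. Hnf4a was at 58.3, 51.1, 122 and 124 CPM. The libraries also hold the subsets in different shares, with 63 Wif1/Notum/Nkd1-positive and 91 Ly6a-positive thinned cells in library 1 and 472 and 143 in library 2, and the part of this in their levels was not tested.

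Libraries 1 and 2 had the same order of the 4 subsets for Krt20, and goblet cells were the highest in each for Guca2a and Guca2b. Krt20 in Ly6a-positive cells was at 291 CPM in library 1 (218 to 381) and 259 CPM in library 2 (203 to 325), and in Wif1/Notum/Nkd1-positive cells at 7.94 and 5.30 CPM. In remaining cells it was at 185 and 71.4 CPM, which did not overlap (118 to 275 and 46.2 to 105). Guca2b in goblet cells was at 275 and 311 CPM. Car1 in Ly6a-positive cells was at 65.9 CPM (34.1 to 115) and 171 CPM (127 to 227). Slc9a3 in Wif1/Notum/Nkd1-positive cells was at 47.6 CPM (17.5 to 104) in library 1 and 121 CPM (99.6 to 145) in library 2, which overlap.

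**Figure D5:**
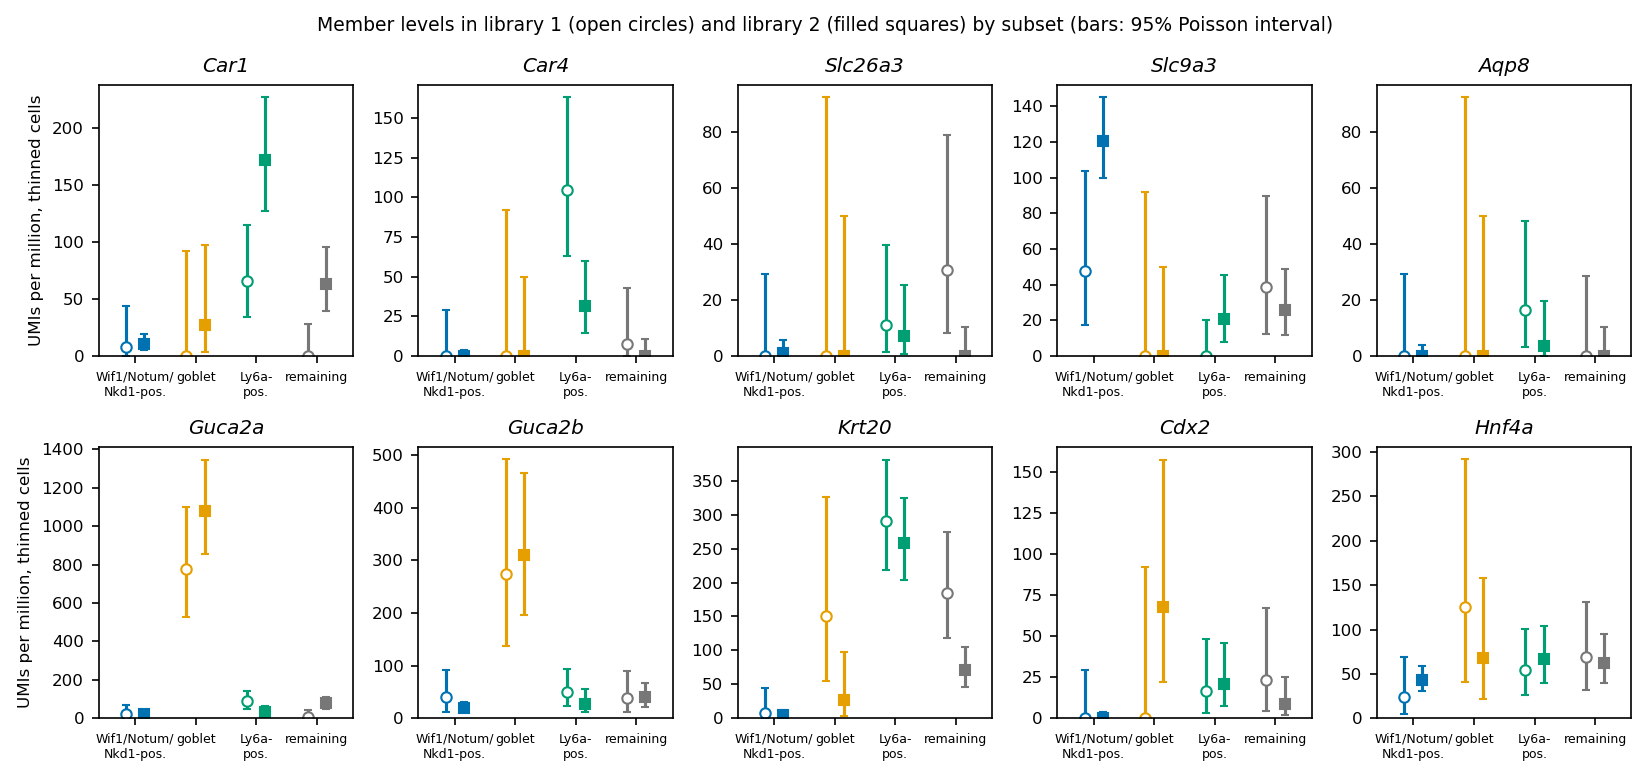
Level of each gene (CPM of cells thinned to 2000 UMIs, vertical axis, a scale of its own per panel) by subset in library 1 (open circles) and library 2 (filled squares), with 95% exact Poisson intervals. Krt20 in Ly6a-positive cells (291 and 259 CPM) and Guca2b in goblet cells (275 and 311 CPM) overlap between libraries, while Krt20 in remaining cells (185 and 71.4 CPM) does not.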

How the data were processed

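The authors deposited UMI counts for each gene in each barcode, without normalization. Cell Ranger 3.0.2 and mm10 are named in the submitters' processing notes, and no annotation release is named there. Positions came from GENCODE M21, which held 31011 of the 31053 deposited gene IDs. Library totals were 9246770, 17158831, 37642375 and 65481274 UMIs for libraries 1 to 4, and every barcode held at least 500 UMIs. A barcode needed 200 genes, 500 UMIs and no more than 20% mitochondrial UMIs to be kept. Scrublet (scanpy 1.11.5) marked 10 cells (0.0704%), so doublet calling has in effect not worked. After these were dropped 14188 cells stayed, namely 594, 1699, 4514 and 7381 in libraries 1 to 4.

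Cells were clustered (2000 variable genes, 30 principal components, 15 neighbours, Leiden resolution 1) without the 10 genes, the pathway lists, and mitochondrial, ribosomal, haemoglobin and variable immune receptor genes. A cluster took the name of a marker list when its mean log2 ratio was at least 1.5, led unrelated lists by 1, with 3 or more of its markers, and no fewer than 50%, each detected in 10% of cells. Epithelial-like cells, those of goblet- and enteroendocrine-like clusters included, were thinned once to 2000 UMIs and gated on the thinned counts.

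Intervals are exact (Poisson, binomial, or conditional for a ratio; 95%), computed with scipy 1.17.1. Where 1 side held 0 UMIs, 3 counts over the subset were used for the value of the ratio, while its interval was computed from the 0. All 10 genes are named; from each list the text names up to 3 genes past 2-fold in each direction with the largest ratio (a few such genes are not reported here), and the 3 genes most like each member, or fewer, by Pearson r. The genes, lists and gates were chosen with earlier results of these data known. The ratio and its interval were run on simulated Poisson totals, the model that the interval assumes. These totals have no spread between cells, so the run cannot show how the intervals behave for UMIs held by few cells.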

Additional observations from a re-analysis of the deposited data

How the results depend on the processing

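The 3 comparisons with the remaining cells were recomputed under up to 22 alternatives. The other comparisons, the pathway lists, the gate amounts and the sub-clusters were not. The alternative without thinning gated all 1790 epithelial-like cells on full counts, so the subsets changed too. They then held 620 Wif1/Notum/Nkd1-positive, 48 goblet, 383 Ly6a-positive and 344 remaining cells. The number of genes highest in epithelial-like cells was 10 under 3 of the 4 alternatives run for it and 9 with at most 10% mitochondrial UMIs. Genes lower in Wif1/Notum/Nkd1-positive than in remaining cells numbered 3, and 5 without thinning, with at least 4 goblet genes and without a minimum of UMIs, and 1 in library 1 alone. They numbered 4 under 8 further alternatives and 2 under 3. Those higher there numbered 1, and 0 in library 1 alone and with whole sub-clusters assigned. In goblet cells 1 gene was lower, against 2 at 4000 UMIs, without thinning, with at least 2 or at least 4 goblet genes, with sub-clusters, at most 10% mitochondrial UMIs, in library 2 alone and without cluster 0, and 0 in library 1 alone and without cluster 2. Those higher numbered 2, against 3 with cells of several gates assigned in order and without a minimum of UMIs, and 0 without cluster 2. In Ly6a-positive cells 1 gene was lower, and 0 at 4000 UMIs, with another draw, in library 1 alone and without cluster 0 or sub-cluster 12. Those higher numbered 2, against 4 at 1000 UMIs, 5 without thinning and with sub-clusters, 1 at most 10% mitochondrial UMIs and 0 without cluster 0, and 3 under 5 further alternatives. The cause was not tested.

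Among the 10 log2 ratios to the remaining cells that were called, 5 of 214 alternative values had the opposite sign. Among the 15 that were not called, 47 of 304 values did, in 10 of the ratios. Of the called ones, Slc9a3 in Ly6a-positive cells was 2.05 at 4000 UMIs, and in Wif1/Notum/Nkd1-positive cells -0.081 with sub-clusters. Car1 in goblet cells was 0.58 with cells of several gates assigned in order and 0.27 without cluster 2. Guca2a in Wif1/Notum/Nkd1-positive cells was 1.63 in library 1 alone. Ratios that kept their sign throughout ranged from 3.33 to 6.65 (Guca2a, goblet), 2.52 to 4.24 (Guca2b, goblet), 0.45 to 2.92 (Krt20, Ly6a-positive), 1.10 to 5.86 (Car4, Ly6a-positive) and -5.06 to -3.02 (Krt20, Wif1/Notum/Nkd1-positive) and -3.48 to -1.17 (Car1, Wif1/Notum/Nkd1-positive). Leaving out libraries 3 and 4, each epithelial-like cluster, or sub-cluster 12 was chosen after seeing the data. No epithelial-like cluster scored higher on erythroid than on epithelial markers, so leaving such clusters out gave no value. No paired analysis was possible because the barcode numbers are not tied to the labelled samples and each group has 1 sample.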
